A study of Mus musculus with 9 samples.

Results

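The E2F and retinoblastoma family of transcription regulators was followed in cultured mouse satellite cells, from which adult skeletal muscle is repaired. Its 10 members, E2f1 to E2f8, Rb1 and Rbl1, were taken by gene symbol, and all 10 were found among 22631 genes in the authors' deposited table of Mutant against Control and among 27775 genes in their PT and PUT table. Mutant libraries, 3 in number, came from mice deficient for Uhrf1 in satellite cells that had been injected with tamoxifen on 5 days, each time with 150 µl of a 20 mg/ml solution. The 3 Control libraries came from mice given oil, and the 3 Cre Control libraries from mice given tamoxifen. All mice were 9 weeks old, and Mutant and Control cells from hindlimb muscle were cultured for 3 days after seeding at 5000 cells/cm2. The promoter that drives the Cre, the alleles the Control and Cre Control mice carried, and whether the libraries within a group are from different animals are not stated in the sources used here. Since Control mice received oil, effects of tamoxifen and of Uhrf1 loss cannot be told apart in these values. The Cre Control libraries were not analysed here.

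E2F proteins bind DNA mostly as dimers with a DP partner and control genes needed for DNA synthesis. E2f1, E2f2 and E2f3 are called activators, E2f4, E2f5 and E2f6 repressors, and E2f7 and E2f8 atypical, because these last members bind DNA without a DP partner and repress. Rb1 and its relatives Rbl1 (p107) and Rbl2 (p130), the pocket proteins, hold E2Fs in check until cyclin-dependent kinases phosphorylate them. Several family genes are themselves E2F targets, and their transcripts vary through the cell cycle. In muscle, Rb1 is known for its part in the cell cycle exit of differentiating myoblasts.

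For 7 of the 10 members a RefSeq promoter sequence (GRCm38.p6) was used, in 9 windows that run from 250 bases before to 50 bases after an annotated start. An E2F element of 8 letters (TTTCCCGC, TTTCGCGC, TTTGCCGC or TTTGGCGC, on either strand) was found in the windows of 4 of these genes, E2f2, E2f3, E2f7 and Rbl1. By window, the same letters occur in 4 of the 9 and in 2.26% of the 32851 windows of that table. E2f1, E2f6 and E2f8 held none of them in their windows. No window was available for E2f4, which was lower in Mutant, or for E2f5 and Rb1, which were not called. The E2f1 window begins from a start that lies 466 bases inside the gene as GENCODE M21 draws it, so it does not cover that gene's upstream region. The stretches below are shown because they hold the element in 4 genes that were lower in Mutant, and a link between element and fall was not tested. E2f8, also lower, stands beside them as a stretch without any of the 8-letter forms. The E2f8 stretch does hold shorter core sequences, TCCCGC and GGCGCG, which the Rbl1 window lacks. Capitals mark the 8-letter element only, which stands on the opposite strand in E2f3 and E2f7.
E2f2, chr4:136172293-136172322, plus strand: ccgaatttggcggcatatagTTTGGCGCta
E2f3, chr13:29986064-29986163, minus strand: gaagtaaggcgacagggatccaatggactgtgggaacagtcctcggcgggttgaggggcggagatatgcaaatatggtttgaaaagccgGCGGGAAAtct
E2f7, chr10:110745189-110745288, plus strand: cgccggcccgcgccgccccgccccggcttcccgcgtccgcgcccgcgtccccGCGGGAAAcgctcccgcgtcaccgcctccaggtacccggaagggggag
Rbl1, chr2:157204535-157204634, minus strand: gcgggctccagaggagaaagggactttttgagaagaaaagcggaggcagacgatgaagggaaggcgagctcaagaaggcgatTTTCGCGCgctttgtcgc
E2f8, chr7:48881597-48881696, minus strand: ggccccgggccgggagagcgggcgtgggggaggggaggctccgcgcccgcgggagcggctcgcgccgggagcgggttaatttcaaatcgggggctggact

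Counted from the RefSeq start, the element began at position -18 in Rbl1, -11 in E2f3 and -198 in E2f7, and at position 40, just after the start, in E2f2. That E2f2 start lies at -120 bases from the GENCODE gene start, so the printed stretch is upstream of the annotated gene. A 6-letter sequence that the MuvB complex can read, TTTGAA on either strand, was present in 3 of the 9 windows (E2f2, E2f3 and E2f8). It was present in 17.9% of all windows. In E2f2 it was in the other window, whose start lies 8388 bases inside the gene, and not in the window of the printed stretch. The 9 family windows held a median of 29 CpG dinucleotides, with a range of 7 to 49, against a median of 7 over all windows. A match describes letters only, and no binding or methylation was measured.

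Gene values were deposited as group means and comparisons. Mean levels are in TPM, an abundance scaled for gene length and library size, so members can be compared in level. Differences of Mutant over Control, called estimates here, are on the log2 scale and were computed as the authors' deposited statistic times its deposited standard error (SE). The fold change column of the authors' deposited table is a different value, the log2 ratio of mean TPM plus 1, and has no error of its own. The deposited p-values belong to the statistic, and a gene was called at an adjusted p below 0.05. Levels per library were not analysed here, so the spread between libraries enters through the SE, and no order of neighbouring levels was tested. Depth per library is unknown for genes.

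A few facts on the libraries bear on all these values. Uhrf1 stood at 20.4 TPM in Mutant and 118 TPM in Control in the authors' deposited table (estimate -3.12, SE 0.60). That SE was larger than the SE of 99.3% of the 3501 genes within 2-fold of its level. Repeat counts, 1794698 to 2245124 per library, singled out the library labelled Control 3. IAPEz-int, an endogenous retrovirus, took 9.29%, 11.1% and 16.3% of them in the Mutant libraries. In Control 1 and Control 2 it took 0.501% (95% Wilson interval 0.491 to 0.511) and 0.675% (0.664 to 0.686), and in the library labelled Control 3 13.1% (13.1 to 13.2). Whether that library entered the Control means for genes is not stated, and its part in the family's values was not tested. All 7 satellite cell and myoblast markers were present, with 4 lower and 2 higher in Mutant, among them Myod1 at 914 and Pax7 at 29.6 TPM in Mutant, against 1018 and 23.1 TPM in Control, in the authors' deposited table. Macrophage and leukocyte markers, 6 of 7 listed, summed to 115 TPM in Mutant and 34.0 TPM in Control. Laptm5 and Fcer1g made up most of the Mutant sum, and Adgre1 was absent. Laptm5, at 84.8 TPM in Mutant and 25.1 TPM in Control, and Cd68, at 6.27 and 3.46 TPM, rose in the authors' deposited table, and 0 of the 6 fell. Among the uncalled markers in that table, Fcer1g was at 19.3 TPM in Mutant and 3.22 TPM in Control (SE of its estimate 1.27). Cd14 was at 3.39 TPM in Mutant and 1.70 TPM in Control in the authors' deposited table. Csf1r was at 0.430 TPM in Mutant and 0.156 TPM in Control, and Ptprc at 0.303 TPM in Mutant and 0.381 TPM in Control. The 5 fibroblast markers summed to 26.0 TPM in Mutant and 19.2 TPM in Control, with 0 called, and the 4 endothelial markers to 6.51 and 7.86 TPM, with 2 lower and 1 higher. Of all genes tested, 8.11% were called lower and 9.02% higher. Among those with at least 1 TPM, with p adjusted again, the shares were 14.8% and 15.7%. No marker list was tested against these shares. The part of any such other cells in the family's values was not tested.

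By the authors' deposited table, 6 of the 10 members fell in Mutant cells and 0 rose. E2f2, E2f3, E2f4, E2f7, E2f8 and Rbl1 were lower, and E2f1, E2f5, E2f6 and Rb1 did not pass the threshold of the DESeq2 test. At an unadjusted p below 0.05 the 6 stayed and 1 member, Rb1, was higher. Over all 22627 genes tested, 8.11% were called lower and 9.02% higher, 17.1% in all. Among the 13625 genes with at least 1 TPM, with p adjusted again over those, 14.8% were lower and 15.7% higher, 30.5% in all. Every member lay above that level. At an adjusted p below 0.01 the shares were 5.97% lower and 6.68% higher, 12.7% in all, and after centring on the median of abundant genes 6.65% and 10.2%, 16.8% in all. The median estimate of the members was -0.40, against 0.01 over all genes. E2f2 was the member with the lowest estimate, and its 95% interval did not reach that of any other member. In these bulk libraries, fewer cycling cells and less of a transcript per cell cannot be told apart.

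In Mutant the levels ran in the order E2f4, E2f8, E2f6, Rb1, E2f3, E2f2, E2f1, E2f7, Rbl1 and E2f5. In Control the order was E2f4, E2f8, E2f6, E2f2, E2f3, Rbl1, E2f7, Rb1, E2f1 and E2f5. The first 3 and the last place were held by the same genes in both groups. E2f2, E2f7 and Rbl1 stood lower in the Mutant order, and E2f1 and Rb1 higher.

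**Figure D1:**
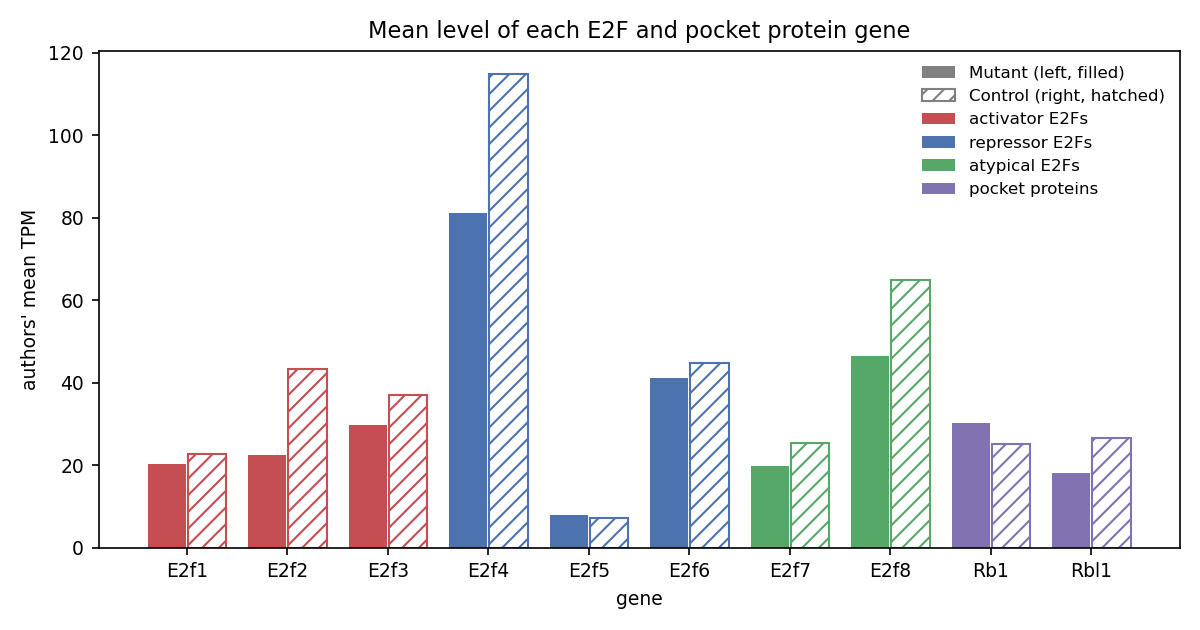
Authors' mean TPM of each member in Mutant (left, filled) and Control (right, hatched) cells, coloured by class. The bars are means over libraries with no error given. E2f4 was highest in both groups, at 81.2 TPM in Mutant and 115 TPM in Control, and E2f2 had the lowest Mutant level relative to Control.

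Among the activators, E2f2 changed most. E2f2 (chromosome 4, 136172394 to 136196057, plus strand, GRCm38) averaged 22.5 TPM in Mutant and 43.4 TPM in Control in the authors' deposited table, so that Mutant stood at 51.9% of Control. The estimate from the deposited statistic was -1.18 (SE 0.10, 95% interval -1.38 to -0.97, adjusted p = 1.87e-27 by the authors' DESeq2 test). Only 22 of the 8687 genes with at least 10 TPM had a lower estimate. E2f2 was the most abundant activator in Control and stood between E2f3 and E2f1 in Mutant. In the authors' deposited table the log2 fold change was smaller, at -0.92, so the size of this fall depends on which value is read. For the 8 members other than E2f2 and E2f7, estimate and deposited log2 fold change had the same sign and differed by less than the SE.

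E2f3, which drives entry into S phase with E2f1, fell by less. E2f3 (chromosome 13, 29906575 to 29986063, minus strand) averaged 29.8 TPM in Mutant and 37.0 TPM in Control in the authors' deposited table (estimate -0.30, SE 0.08, adjusted p = 0.00315, DESeq2). The values of E2f1, the activator also known for inducing apoptosis genes, did not pass the threshold. E2f1 (chromosome 2, 154559407 to 154569892, minus strand) averaged 20.2 TPM in Mutant and 22.8 TPM in Control in the authors' deposited table (estimate -0.19, SE 0.12, adjusted p = 0.34, DESeq2). Its interval ran from -0.43 to 0.04, which leaves room for a fall about as large as that of E2f3. The interval of E2f2 lay wholly below those of E2f1 and E2f3, a difference between activators that was read from the intervals and not tested.

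Among the repressors, E2f4 fell. E2f4, the most abundant E2F here and the main partner of the p107 and p130 proteins in quiescent cells, averaged 81.2 TPM in Mutant and 115 TPM in Control in the authors' deposited table (chromosome 8, 105297663 to 105305370, plus strand). Its estimate was -0.52 (SE 0.08, 95% interval -0.68 to -0.37, adjusted p = 1.54e-09, DESeq2). E2f6, which needs no pocket protein and works with a Polycomb complex, averaged 41.2 TPM in Mutant and 44.9 TPM in Control in the authors' deposited table (chromosome 12, 16810963 to 16839742, plus strand). It was not called (estimate -0.14, SE 0.09, 95% interval -0.31 to 0.02, adjusted p = 0.308, DESeq2). E2f5, a partner of p130, was the least abundant member, with 7.89 TPM in Mutant and 7.11 TPM in Control in the authors' deposited table (chromosome 3, 14578641 to 14606309, plus strand). Its estimate of 0.14 had the widest error of the family (SE 0.21, 95% interval -0.28 to 0.55, adjusted p = 0.873, DESeq2), which leaves room for a change in either direction within those bounds.

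Both atypical members fell, by nearly the same estimate. E2f8 averaged 46.5 TPM in Mutant and 64.9 TPM in Control in the authors' deposited table (chromosome 7, 48866429 to 48881596, minus strand). Its estimate was -0.52 (SE 0.06, 95% interval -0.65 to -0.39, adjusted p = 1.07e-13, DESeq2). E2f7, its partner in repression of E2f1 and a p53 target in human cells, averaged 19.8 TPM in Mutant and 25.5 TPM in Control in the authors' deposited table (chromosome 10, 110745439 to 110787384, plus strand). Its estimate was -0.50 (SE 0.09, 95% interval -0.68 to -0.31, adjusted p = 3.18e-06, DESeq2), against -0.35 in the fold change column of the authors' deposited table. E2f8 was the more abundant of the pair, 2.35 times the E2f7 level in Mutant and 2.55 times in Control.

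The pocket protein genes had opposite signs. Rbl1, whose p107 protein acts mainly in cycling cells and whose gene is an E2F target, averaged 18.0 TPM in Mutant and 26.6 TPM in Control in the authors' deposited table (chromosome 2, 157145893 to 157204534, minus strand). Its estimate was -0.60 (SE 0.09, 95% interval -0.77 to -0.43, adjusted p = 1.43e-10, DESeq2). Rb1, which encodes the retinoblastoma protein itself, averaged 30.2 TPM in Mutant and 25.1 TPM in Control in the authors' deposited table (chromosome 14, 73183673 to 73325822, minus strand). Rb1 missed the threshold (estimate 0.22, SE 0.10, unadjusted p = 0.0247, adjusted p = 0.117, DESeq2). The level of Rb1 was 1.68 times that of Rbl1 in Mutant and 0.943 times in Control. Rbl2, the remaining pocket protein gene and not one of the 10 members, was at 12.3 TPM in Mutant and 10.8 TPM in Control in the authors' deposited table (estimate 0.19, SE 0.11, adjusted p = 0.277, DESeq2).

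**Figure D2:**
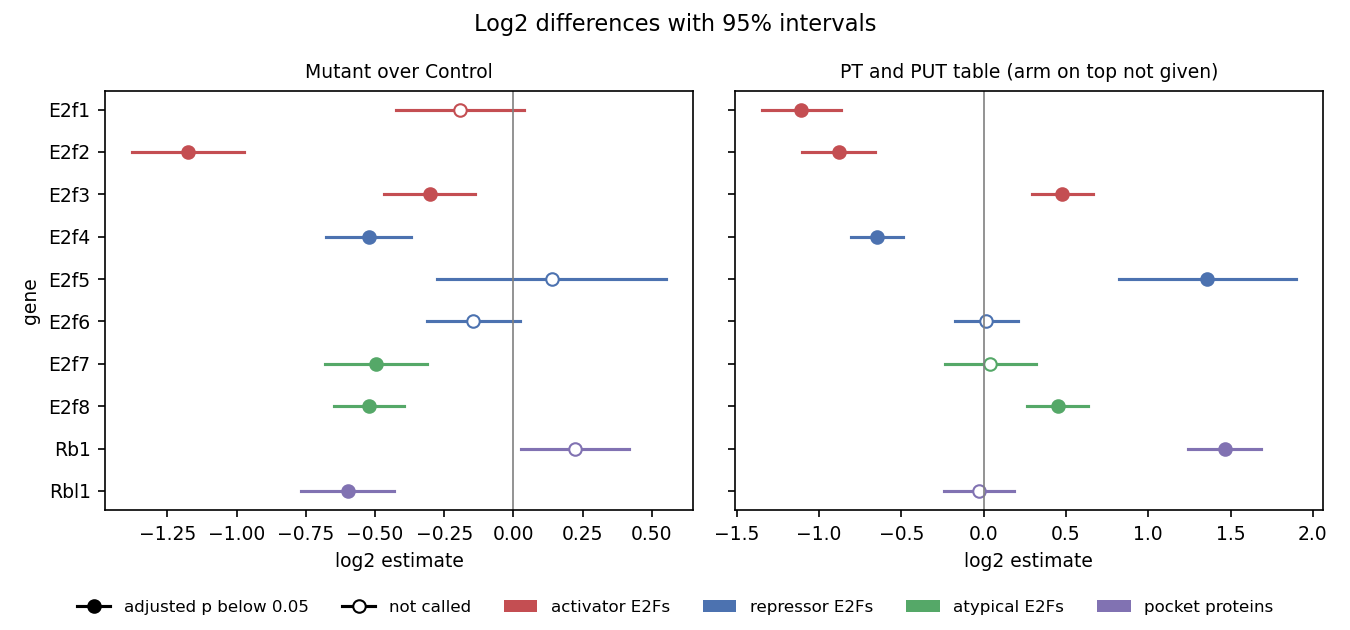
Log2 difference (horizontal axis) of each member with its 95% interval, as the estimate from the authors' statistic and SE for Mutant over Control (left) and as deposited in the PT and PUT table (right), where the arm on top is not given; filled points passed an adjusted p of 0.05. E2f2 and E2f4 lay below 0 in both panels, while E2f3 and E2f8 lay below 0 at left and above 0 at right.

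Summed by class, E2F transcripts were lower in Mutant in each class, and the make-up of the family shifted little. Activators summed to 72.6 TPM in Mutant and 103 TPM in Control, a log2 ratio of -0.51. The repressors summed to 130 TPM in Mutant and 167 TPM in Control (log2 ratio -0.36), and the atypical pair to 66.3 and 90.4 TPM (log2 ratio -0.45). Activators made up 27.0% of E2F transcripts in Mutant and 28.7% in Control, repressors 48.4% and 46.3%, and atypical members 24.6% and 25.1%. Repressor transcripts were 1.80 times activator transcripts in Mutant and 1.61 times in Control. The sums depend on single members. Without E2f2, a sum chosen after seeing the data, the activators had a log2 ratio of -0.26. Without the most abundant member of each class over both groups, the log2 ratio was -0.63 for activators (without E2f3) and -0.082 for repressors (without E2f4). E2F transcripts together were 5.58 times those of Rb1 and Rbl1 in Mutant and 6.97 times in Control. These sums rest on the authors' group means, and no error could be given for them.

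**Figure D3:**
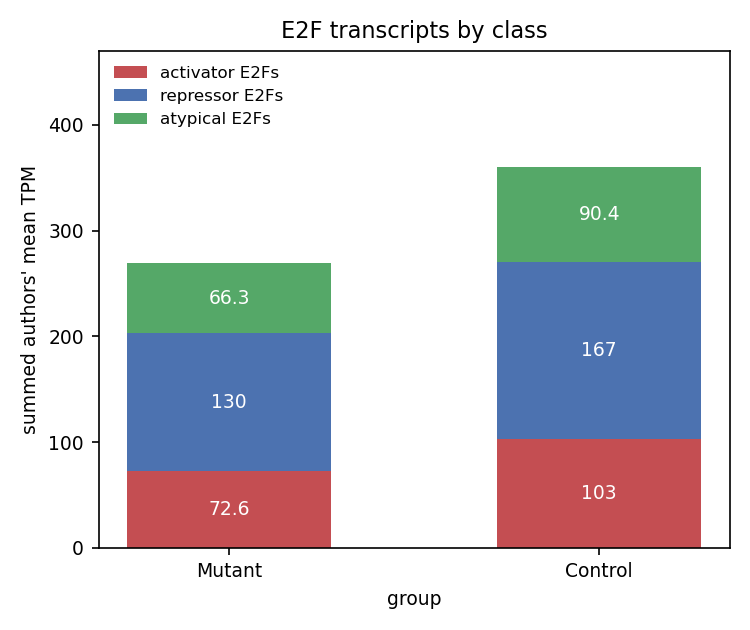
Summed authors' mean TPM of the 8 E2F genes by class, in Mutant (left) and Control (right) cells. Each class was lower in Mutant, and repressors were the largest class in both groups, at 130 TPM in Mutant and 167 TPM in Control.

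The deposited PT and PUT table gave a different picture for most members. It holds log2 fold changes between arms that the labels do not tie to groups, and which arm is on top is not given, so its signs are printed as deposited beside that of Uhrf1, which was -4.00 (SE 0.27, adjusted p = 1.81e-48, DESeq2). Whether its libraries overlap those of the first table is not stated in those sources, so the tables are set side by side and no agreement between them was tested. Of its 27775 genes 47.2% were called, 22.1% with a negative and 25.1% with a positive sign. Of the members, 3 were negative (E2f1, E2f2 and E2f4), 4 positive (E2f3, E2f5, E2f8 and Rb1) and 3 not called (E2f6, E2f7 and Rbl1). Cell type markers also differed between the arms. Of the satellite cell and myoblast markers 6 were negative, among them Itga7 at -1.09 (SE 0.07) and Des at -0.78 (SE 0.07), and 1, Myf5, was positive at 0.84 (SE 0.11), in the authors' deposited PT and PUT table. Of the other markers listed, Laptm5 (2.00, SE 0.12), Fcer1g (4.65, SE 0.64), Cdh5 (1.96, SE 0.62) and Pdgfra (1.38, SE 0.31) were called positive and Csf1r (-0.46, SE 0.16) negative in that deposited table of the authors. The part of these cells in the family's values was not tested. A share of 7 in 10 called has to be read against a table in which 62.7% of the 19118 genes with a mean normalised count of at least 10 were called, 32.3% negative and 30.4% positive. At an adjusted p below 0.01 the share was 39.4% (19.2% negative and 20.2% positive), and after centring it was 48% (18.5% negative and 29.5% positive).

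Here E2f1 was the member with the most negative value. The authors' deposited PT and PUT table gave E2f1 a log2 fold change of -1.11 (SE 0.12, 95% interval -1.35 to -0.86, adjusted p = 4.31e-18, DESeq2), where the Mutant and Control table had given -0.19. E2f2 was at -0.88 (SE 0.11, adjusted p = 8.18e-14, DESeq2) and E2f4 at -0.65 (SE 0.08, adjusted p = 1.76e-14, DESeq2) in the PT and PUT table, against -1.18 and -0.52 in Mutant over Control.

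The other called members had the opposite sign to Uhrf1. Rb1 was at 1.46 (SE 0.11, 95% interval 1.24 to 1.69, adjusted p = 9.15e-37, DESeq2) and E2f5 at 1.36 (SE 0.27, adjusted p = 3.46e-06, DESeq2) in the authors' deposited PT and PUT table. In Mutant over Control their estimates were 0.22 and 0.14, neither of them called. E2f3 and E2f8 had unlike signs in the tables. E2f3 was at 0.48 (SE 0.09) in the PT and PUT table and -0.30 (SE 0.08) in the other. E2f8 was at 0.45 (SE 0.09) in the PT and PUT table and -0.52 (SE 0.06) in the other, with called values in both tables. The class names did not sort these values, since activators, with values of -1.11, -0.88 and 0.48, and repressors, with -0.65, 1.36 and 0.02, each went both ways.

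Members that were called in Mutant against Control but not here were E2f7 and Rbl1. E2f7 was at 0.04 (95% interval -0.23 to 0.32) and Rbl1 at -0.03 (95% interval -0.24 to 0.18) in the authors' deposited PT and PUT table. Both intervals leave out the estimates of the first table, -0.50 and -0.60. E2f6 was at 0.02 (95% interval -0.17 to 0.21) and was called in neither table. The median of the 12170 genes with a mean normalised count of at least 100 was -0.12 in this table, and centring on it kept the same 3 negative and 4 positive members.

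Some of the members share ground with other genes, which matters where reads were not counted by strand, a setting that was not stated. Rb1 overlaps Rcbtb2, Lpar6, Mir687 and Gm17233 in GENCODE M21. Lpar6, a receptor gene inside Rb1 on the other strand, was at 1.26 (SE 0.22) and Gm17233, on the same strand, at 1.40 (SE 0.38) in the authors' deposited PT and PUT table, beside 1.46 for Rb1. Rcbtb2, which shares the longest stretch with Rb1 (24171 bases, on the other strand), was at 0.08 (SE 0.10, adjusted p = 0.561, DESeq2) in the same deposited table of the authors. E2f5 overlaps the end of 1810022K09Rik by 26 bases, and that gene was at 3.19 (SE 0.21) in the authors' deposited PT and PUT table. In Mutant over Control, Rcbtb2 was at -0.23 (SE 0.09) and Lpar6 at -0.12 (SE 0.16), beside 0.22 for Rb1. There 1810022K09Rik was at -0.24 (SE 0.11), beside 0.14 for E2f5, and none of these genes was called. The part of shared reads in the values of Rb1 and E2f5 was not tested.

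Many genes around the family were also lower in Mutant than in Control. Over all genes tested, 8.11% were called lower and 9.02% higher. Of genes with at least 1 TPM, with p adjusted again over those, 14.8% were lower and 15.7% higher, 30.5% in all. No list below was tested against these shares, and the list calls kept p adjusted over all genes. Of the DP partners and the third pocket protein, Tfdp1 and Tfdp2 fell and Rbl2 was not called. Tfdp1, the main DP partner, averaged 183 TPM in Mutant and 215 TPM in Control in the authors' deposited table (estimate -0.28, SE 0.05), and Tfdp2 followed with -0.31 (SE 0.09). Of 7 genes of the MuvB complex and its partners, which join the pocket proteins to repress cell cycle genes or activate mitotic ones, 5 fell in Mutant and 0 rose. Mybl2, an E2F target that encodes B-Myb, fell with an estimate of -0.55 (SE 0.08), Lin9 with -0.42 (SE 0.13, adjusted p = 0.0123, DESeq2), Foxm1 with -0.39 (SE 0.08) and Lin54 with -0.38 (SE 0.10) in the authors' deposited table. Of 9 partners of E2f6 in the Polycomb complex PRC1.6, 3 fell and 0 rose. Counted in either direction, that is near the 30.5% of genes with at least 1 TPM, a share at an easier adjustment than the list count. Those that fell were L3mbtl2 (-0.33, SE 0.09), Cbx3 (-0.33, SE 0.05) and Pcgf6 (-0.37, SE 0.14) in the authors' deposited table. Pcgf6 had an adjusted p of 0.049 (DESeq2) and lost its call after centring on the median of abundant genes and at a threshold of 0.01.

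Among genes of the kinases that phosphorylate pocket proteins, the E-type cyclins and the kinase subunits fell and the D-type cyclins were not called. In counts, 5 of 8 such genes fell in Mutant and 0 rose, with a median estimate of -0.51 against 0.01 over all genes. Cdk6 (-0.70, SE 0.07), Ccne1 (-0.68, SE 0.10), Ccne2 (-0.68, SE 0.09) and Cdk2 (-0.60, SE 0.10) were the members with the largest falls there. The D-type cyclins Ccnd1, Ccnd2 and Ccnd3 were not called, with Ccnd1 at 498 TPM in Mutant and 448 TPM in Control in the authors' deposited table (estimate 0.15, SE 0.06, adjusted p = 0.0854, DESeq2). After centring, Ccnd1 was called higher. Of 7 genes for inhibitors of these kinases, 1 rose in Mutant and 1 fell. Of genes with at least 1 TPM, with p adjusted again over those, 14.8% were called lower and 15.7% higher, 30.5% in all. The inhibitor count is near that last share, though its calls kept p adjusted over all genes. Cdkn1a, which encodes p21, rose (0.54, SE 0.13) and Cdkn2c fell (-0.46, SE 0.10). Cdkn1c, at 0.81 (SE 0.31, adjusted p = 0.0566, DESeq2), was called higher after centring.

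Targets of E2F in S phase fell almost as a whole. Among genes with at least 1 TPM, with p adjusted again over those, 14.8% were lower. By the authors' deposited table, 21 of 22 such genes were called lower and 0 higher, with a median estimate of -0.45, and Orc1 was at -0.39 (SE 0.15, adjusted p = 0.053, DESeq2). Ccna2, cyclin A2, fell with -0.69 (SE 0.07), the thymidine kinase Tk1 with -0.59 (SE 0.08), the helicase subunit Mcm5 with -0.57 (SE 0.08) and the checkpoint kinase Chek1 with -0.57 (SE 0.11) in the authors' deposited table. Of 10 genes that act in G2 and M phase, 8 fell in Mutant and 0 rose, with a median of -0.39, so falls were not confined to genes of S phase. At an unadjusted p below 0.05 the pathway lists with 0 higher calls held 0 higher genes too, except that of cyclins and kinases with 1, Ccnd1. The 6 called family members, with estimates from -0.30 to -1.18, fell over a range that holds those of the named targets. Of the 22 S phase targets, 15 were negative in the PT and PUT table, 1 was positive and 6 were not called. Of the 10 genes that act in G2 and M phase 4 were negative and 3 positive. Of all genes there 22.1% were called negative and 25.1% positive. Among those with a mean normalised count of at least 10, with p adjusted again, the shares were 32.3% and 30.4%. The G2 and M phase counts are near the latter, and no list was tested against these shares. Ccne2 (1.40, SE 0.12), Cdk1 (0.92, SE 0.09) and Rrm2 (0.26, SE 0.05), chosen after their values were seen, had a positive sign in the authors' deposited PT and PUT table and fell in Mutant against Control.

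**Figure D4:**
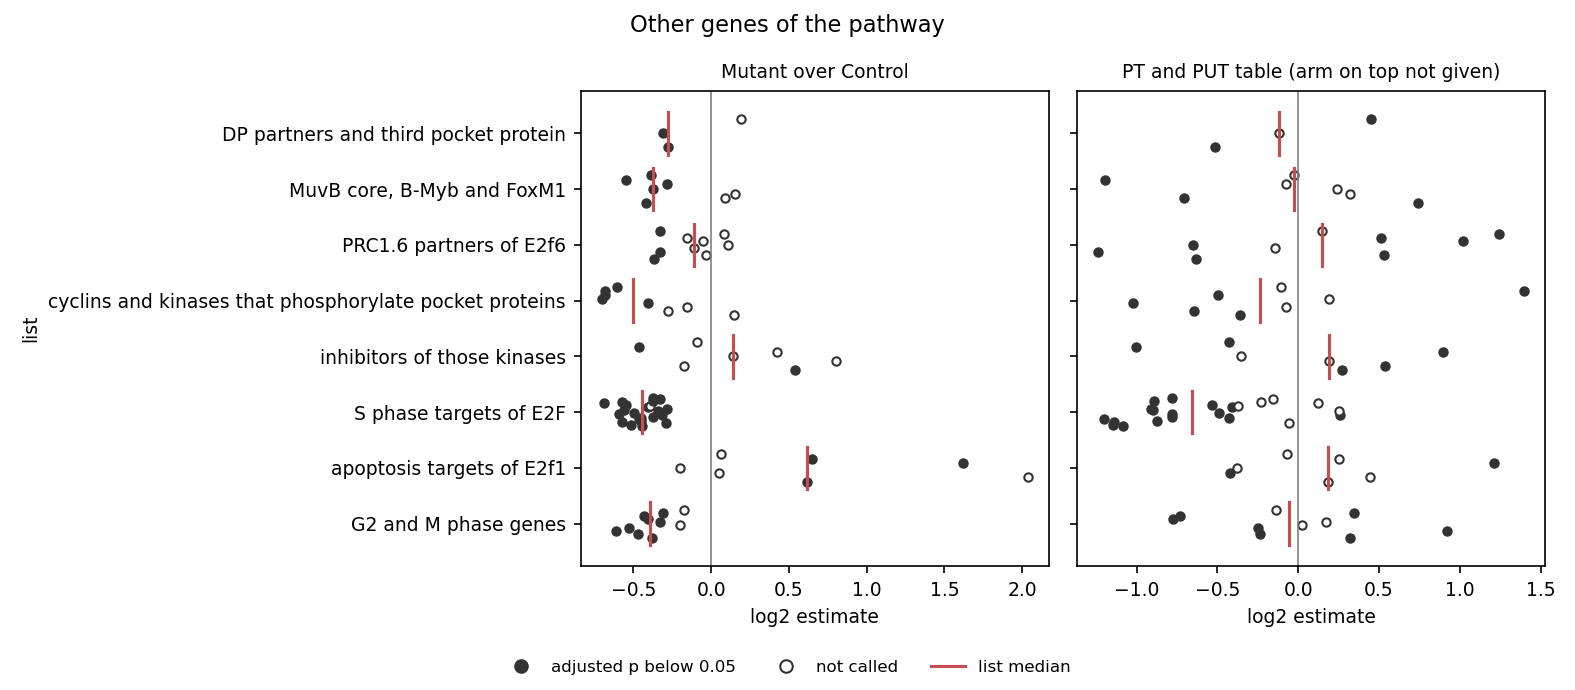
Log2 differences (horizontal axis) of the other genes of the pathway by list, as estimates from the authors' statistic and SE for Mutant over Control (left) and as deposited in the PT and PUT table (right); filled points passed an adjusted p of 0.05 and red lines are list medians. At left the S phase targets lay below 0 with a median of -0.45, and at right they spread on both sides with a median of -0.66.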

How the data were processed

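RNA was measured in activated satellite cells. Per the labels' protocols, Mutant and Control RNA was depleted of ribosomal RNA and sequenced as stranded paired reads. The submitters' processing notes list DESeq2, featureCounts 2.0.1, Trim Galore 0.6.6 and STAR 2.7.6a for these libraries and HISAT2 2.2.1 in place of STAR for Cre Control, with no role or order, on GRCm38. The authors deposited mean TPM per group, log2 fold changes with their SE, a statistic (a score) and p-values for 22631 genes of Mutant and Control, 4 of them without a statistic. Those log2 fold changes are ratios of mean TPM plus 1, within 4.79e-08, so estimates were computed here as the statistic times its SE. Per the file headers, the PT and PUT table holds mean normalised counts (a signal), log2 fold changes, SE, scores and p-values. The authors also deposited repeat counts, used for 1 share per library, whose intervals cover counting error only, because duplicate PCR reads cannot be told from separate molecules.

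Calls used an adjusted p of 0.05, and 95% intervals are normal. No new test across libraries was run, so p-values are the authors' and measure the spread between libraries, which may be technical. The centring and adjustment steps, in Python 3.11.15 with scipy 1.17.1, were tested on simulated estimates. Alternatives were a threshold of 0.01, a filter on low values, centring on the median of abundant genes, pseudocounts of 1 and 0.1, class sums without the most abundant member, and a shorter motif. All members were named, with up to 4 called genes of largest estimate per other list. Members and lists were chosen with earlier results of these data known. Positions and overlaps came from GENCODE M21 (GRCm38).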

Additional observations from a re-analysis of the deposited data

How the results depend on the processing

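The 6 members called lower in Mutant and the 0 called higher were the same genes at a threshold of 0.01, with p adjusted over genes of at least 1 TPM, and after centring on the median of genes of at least 10 TPM (-0.03). The 3 negative and 4 positive members of the PT and PUT table also kept their calls under each of these settings. Centring there turned Rbl1, which was not called, to 0.091. The authors' deposited log2 fold change, which is the log2 ratio of mean TPM with a pseudocount of 1, was -0.92 for E2f2 and -0.35 for E2f7, smaller falls than their estimates. With a pseudocount of 0.1 these came to -0.94 and -0.36, and the cause of the gap to the estimates was not tested. Without the most abundant member, the log2 ratio of class sums moved to -0.63 for activators, -0.082 for repressors and -0.56 for pocket proteins, which then rest on E2f1 and E2f2, on E2f5 and E2f6, and on Rbl1. Without E2f2, chosen after seeing the data, it was -0.26 for activators. At a threshold of 0.01, and in Mutant against Control also after centring, every count of the pathway lists was within 1.5 times its value. At 0.01 Lin9 and Pcgf6 lost their calls, and in the PT and PUT table Cdkn2d did. After centring Pcgf6 lost its call, while Ccnd1 and Cdkn1c were called higher. The shorter motif, TCCCGC or GGCGCG, was found in 6 of the 7 genes, by window in 7 of the 9, and in 30.0% of all windows. E2f8 was among the 6 and Rbl1 was not, so the contrast between these genes depends on the motif used. No paired analysis was possible because the gene tables carry no replicate columns, and for the same reason no library could be left out. Depth per library is unknown for genes, and E2f5, the least abundant member, had the widest interval.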

Other observations

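Targets that E2F factors share with other regulators did not all follow the S phase genes. Of 7 apoptosis genes listed as E2f1 targets, 3 rose and 0 fell in Mutant in the authors' deposited table. Of genes with at least 1 TPM, with p adjusted again over those, 15.7% were called higher and 14.8% lower. Pmaip1, which encodes the BH3 protein Noxa and is also a p53 target, averaged 28.0 TPM in Mutant and 8.98 TPM in Control in the authors' deposited table (estimate 1.62, SE 0.12, adjusted p = 3.34e-37, DESeq2). Bbc3, which encodes Puma and is likewise a p53 target, rose with 0.65 (SE 0.19), and Apaf1, the core of the apoptosome, with 0.62 (SE 0.08) in the authors' deposited table. E2f1 itself stood at 20.2 TPM in Mutant and 22.8 TPM in Control there. In the PT and PUT table Pmaip1 was at 1.21 (SE 0.14), while Apaf1 (0.19, SE 0.08) and Bbc3 (0.25, SE 0.19) were not called.

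Germline genes that E2f6 is known to silence with DNA methylation had low levels in both groups, too low to judge a change. Of Stag3, Smc1b, Slc25a31, Tuba3a and Tuba3b, 0 were called in the authors' deposited table of Mutant and Control. Together they summed to 2.19 TPM in Mutant and 2.14 TPM in Control, with Stag3 as the largest part (0.992 and 1.40 TPM). Their SE ran from 0.48 (Stag3) to 4.08 (Slc25a31). Tuba3b was at 0.533 TPM in Mutant and 0.116 TPM in Control (estimate 2.17, 95% interval -0.13 to 4.46). Tuba3a (5.13, SE 1.36) and Tuba3b (4.80, SE 1.40), near-identical copies that are uncertain as separate genes, were called in the authors' deposited PT and PUT table at mean normalised counts of 6.24 and 4.97. At those levels few reads stand behind each value.

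The errors of the family members were ordinary for their level. Between 16.8% (E2f8) and 62.9% (E2f4) of genes within 2-fold of a member's mean TPM had a smaller SE in the authors' deposited table, against 99.3% for Uhrf1. In the PT and PUT table the share for Uhrf1 was 99.4%, and for the members it lay between 32.4% (E2f6) and 73.2% (E2f5).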
